A study of Mus musculus with 26 samples.

Results

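Fgf5, Pou3f1, Otx2, Zic2, Sox3, Foxd3 and Sox4 are transcripts that rise or are held when naïve pluripotent cells move towards the formative epiblast. They were followed in RNA-seq values of mouse embryonic stem cells (mESCs) that had lost Prdm14 or its partner Mtgr1. The genes were chosen by name, 7 of the 24015 genes measured, and all 7 were among the 13477 genes that reached 1 RPKM in at least 2 libraries and were tested. RPKM divides the reads of a gene by its length and by the reads counted in that library, so that levels can be compared between genes.

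The study asked whether loss of Mtgr1, a co-repressor encoded by Cbfa2t2, has the same effect on gene expression as loss of the DNA-binding protein Prdm14. All lines came from Stella:GFP mESCs, which carry a green reporter of the germ cell gene Stella, and were maintained in 2i+LIF (serum-free medium with 0.8 µM PD0325901, a MEK inhibitor, 3.3 µM CHIR99021, a GSK3 inhibitor, and the cytokine LIF). There were 15 libraries in 7 conditions. Wild-type (wt) cells gave 1 library in serum+LIF and 2 libraries in 2i+LIF. Prdm14-/- cells (clones G6 and F10, 2 libraries) were measured alone, after return of FLAG-HA-tagged Prdm14 (FH-Prdm14, 2 libraries), or after return of the same tagged protein with the E294K substitution at the surface that contacts Mtgr1 (E294K, 2 libraries). Mtgr1-/- cells (clones A3, C1 and C3, 3 libraries) were measured alone or after return of FLAG-HA-Mtgr1 (FH-Mtgr1, 3 libraries). The serum+LIF medium was applied for 5 days to the Stella:GFP lines and their derivatives. Knockout lines were grown from single CRISPR-Cas9 edited cells, and each rescue line carries a tagged transgene in such a clone. The wt serum+LIF condition has no replicate, and every test against it took its spread from the other conditions.

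The formative epiblast lies between the naïve state of the early blastocyst and the lineage-primed state of the egg cylinder. In culture, naïve cells leave 2i+LIF through FGF and ERK signalling, and Otx2 and Pou3f1 then work with the core pluripotency factors at newly opened enhancers. Fgf5 is the classical marker of this step, and the competence to make primordial germ cells is acquired within it.

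On the mm9 assembly the genes lie on 4 autosomes and the X chromosome. Fgf5 (chr5:98683203-98706049, plus strand, 3 exons) encodes a secreted growth factor. Pou3f1 (chr4:124334896-124337899, plus strand), Sox3 (chrX:58144545-58146605, minus strand), Foxd3 (chr4:99322990-99325362, plus strand) and Sox4 (chr13:29040788-29045582, minus strand) each have 1 exon. Otx2 (chr14:49277354-49287319, minus strand) and Zic2 (chr14:122874604-122879074, plus strand) share chromosome 14 without being neighbours. Transcript GC content was highest in Sox3 (66.6%), Foxd3 (64.2%) and Pou3f1 (61.5%), against a median of 51.2% over the 12046 tested genes with a value, and lowest in Fgf5 (47.0%). The Sox4 gene overlaps the antisense lincRNA Gm17419 and Foxd3 holds the miRNA BX005053.1. No strand marking was described for the libraries, so that reads of Sox4 and of its antisense partner cannot be told apart.

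The sequences just before the transcription starts are shown because these genes responded to loss of a DNA-binding repressor and its co-repressor. RefSeq entries (GRCm38.p6) were given for 4 of the 7 genes, with 7 starts in all. The 250 bases before a start are printed on the strand of the gene, with each CG dinucleotide in capitals. Their mm9 positions, found by exact match, are chr5:98682953-98683202 (Fgf5), chr4:99322740-99322989 (Foxd3), chr13:29045569-29045818 (Sox4) and chr14:49287320-49287569 (Otx2, the most upstream of its starts).
Fgf5: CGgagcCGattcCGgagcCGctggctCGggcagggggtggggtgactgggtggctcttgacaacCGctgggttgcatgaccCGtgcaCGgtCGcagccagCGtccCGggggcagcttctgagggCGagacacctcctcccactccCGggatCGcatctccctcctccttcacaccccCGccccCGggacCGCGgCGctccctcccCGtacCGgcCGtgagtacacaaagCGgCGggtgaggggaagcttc
Foxd3: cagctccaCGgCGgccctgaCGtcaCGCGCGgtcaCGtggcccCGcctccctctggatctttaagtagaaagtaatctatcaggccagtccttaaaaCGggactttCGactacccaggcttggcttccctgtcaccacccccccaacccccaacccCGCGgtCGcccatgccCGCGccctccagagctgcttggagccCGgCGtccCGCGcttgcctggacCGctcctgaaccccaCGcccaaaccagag
Sox4: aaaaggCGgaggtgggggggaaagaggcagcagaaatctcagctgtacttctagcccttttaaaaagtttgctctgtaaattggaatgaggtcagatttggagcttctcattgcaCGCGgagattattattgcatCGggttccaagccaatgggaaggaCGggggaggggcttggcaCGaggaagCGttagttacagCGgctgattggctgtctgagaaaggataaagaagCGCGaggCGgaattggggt
Otx2: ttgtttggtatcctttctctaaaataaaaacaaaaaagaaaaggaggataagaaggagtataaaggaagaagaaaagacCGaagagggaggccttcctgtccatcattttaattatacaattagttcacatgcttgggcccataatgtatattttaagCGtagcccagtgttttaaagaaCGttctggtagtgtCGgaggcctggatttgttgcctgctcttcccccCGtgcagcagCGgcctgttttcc

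These windows hold 24 CG dinucleotides in Fgf5, 21 in Foxd3 and 11 in Sox4, against a median of 6 over all 32536 mouse promoter windows of the same length. The Otx2 window holds 6, and its other starts hold 9, 14 and 8. The Prdm14 motif, searched as GGTCTCTAA on both strands, was in none of the 7 windows, and it was present in 78 (0.24%) of all windows. A window without these letters says nothing about binding elsewhere at the gene.

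The libraries held 10668572 to 21218414 reads on genes. Prdm14 RNA was at 1.96 and 3.60 RPKM in Prdm14-/- cells against 2.77 RPKM in wt serum+LIF mESCs, and it was at 79.8 to 116 RPKM in the FH-Prdm14 and E294K lines. The editing is at the DNA level, so that these RNA levels do not test the knockout. Cbfa2t2 was at 19.9 (A3), 18.6 (C1) and 18.0 (C3) RPKM in Mtgr1-/- cells and at 25.5 to 28.0 RPKM in FH-Mtgr1 cells. It was as low in Prdm14-/- cells, at 16.6 (G6) and 16.8 (F10) RPKM, and was at 40.7 RPKM in the wt serum+LIF library. The Y-linked gene Ddx3y was at 0.0104 RPKM in Mtgr1-/- clone A3 and at 8.47 RPKM in its labelled rescue. It was at 10.5 RPKM in Mtgr1-/- clone C1 and at 0.0406 RPKM in the rescue labelled C1. The clone names of these 4 libraries therefore go against their Y-linked RNA. Libraries labelled G6 also differed in Ddx3y, at 0.595 (Prdm14-/-), 1.69 (FH-Prdm14) and 4.73 (E294K) RPKM. Those labelled F10 had 5.42, 1.74 and 5.32 RPKM in the same order. These differences touch only a pairing by clone, since the unpaired comparisons use the conditions. The pair of wt 2i+LIF libraries also stood apart from each other, with Foxd3 at 53.5 and 6.25 RPKM. In bulk RNA, more cells that express a gene and more RNA per cell cannot be told apart.

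Fgf5 had the lowest median level of the 7 genes, 1.56 RPKM over all libraries. It was at 15.3 (G6) and 12.8 (F10) RPKM in Prdm14-/- cells, and at 7.45 (A3), 5.68 (C1) and 5.71 (C3) RPKM in Mtgr1-/- cells. It was at 4.04 (F10) and 3.34 (G6) RPKM in E294K cells. The wt serum+LIF library had 1.56 RPKM. No range touched that of the next condition in this order. The FH-Mtgr1 lines followed with 0.782 (A3), 1.15 (C1) and 0.973 (C3) RPKM, and the FH-Prdm14 lines with 0.622 (G6) and 0.497 (F10) RPKM. The wt 2i+LIF libraries closed the order at 0.0749 and 0.0312 RPKM, which rest on 3 reads in all.

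Pou3f1, a POU transcription factor of the epiblast and later of the nervous system, followed nearly the same order at higher levels. It was at 130.3 (G6) and 114 (F10) RPKM in Prdm14-/- cells and at 70.4 (A3), 78.6 (C1) and 186 (C3) RPKM in Mtgr1-/- cells. The ranges of the knockouts overlapped, and Mtgr1-/- clone C3 was the highest library of all. E294K cells had 44.3 (F10) and 43.2 (G6) RPKM and wt serum+LIF cells 33.3 RPKM. FH-Mtgr1 cells had 21.1 (A3), 21.3 (C1) and 20.2 (C3) RPKM, FH-Prdm14 cells 14.9 (G6) and 9.86 (F10) RPKM, and wt 2i+LIF cells 7.01 and 3.29 RPKM. Below the knockouts, each condition lay apart from the next.

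Otx2, a homeobox factor that drives the exit from the naïve state, had another order. E294K cells (68.6 in F10 and 64.6 in G6), wt serum+LIF cells (66.6) and FH-Mtgr1 cells (64.4 in A3, 71.0 in C1 and 64.2 in C3) shared the highest RPKM, and their ranges overlapped. Prdm14-/- cells lay below them at 34.2 (G6) and 57.1 (F10) RPKM. Mtgr1-/- cells were lower again, at 29.6 (A3), 27.7 (C1) and 19.0 (C3) RPKM. The wt 2i+LIF cells (20.0 and 15.0 RPKM) and FH-Prdm14 cells (15.5 RPKM in G6 and 15.4 in F10) were lowest. The ranges of Mtgr1-/- and wt 2i+LIF cells overlapped, as did those of wt 2i+LIF and FH-Prdm14 cells.

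Among the SOX factors, Sox4 separated both knockouts from the other conditions. It was at 46.6 (A3), 42.9 (C1) and 86.6 (C3) RPKM in Mtgr1-/- cells and at 65.1 (G6) and 48.1 (F10) RPKM in Prdm14-/- cells, in overlapping ranges. E294K cells had 25.7 (F10) and 25.6 (G6) RPKM, below both. The wt serum+LIF library (18.9 RPKM), FH-Prdm14 cells (19.5 in G6 and 14.9 in F10) and FH-Mtgr1 cells (14.1 in A3, 15.8 in C1 and 13.5 in C3) formed an overlapping group. The wt 2i+LIF libraries had the lowest values, 7.33 and 12.4 RPKM.

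Sox3, an X-linked SOX factor of epiblast and neural progenitors, was also high in both knockouts, but FH-Prdm14 cells kept it. Its RPKM was 11.8 (A3), 13.8 (C1) and 32.5 (C3) in Mtgr1-/- cells, 24.0 (G6) and 9.39 (F10) in Prdm14-/- cells, and 18.4 (G6) and 9.44 (F10) in FH-Prdm14 cells. These 3 ranges overlapped, and clone G6 was above clone F10 with and without the transgene. E294K cells (4.63 in F10 and 4.84 in G6) and FH-Mtgr1 cells (4.70 in A3, 4.29 in C1 and 4.22 in C3) had lower, overlapping RPKM. Lowest were wt cells, with 2.62 RPKM in serum+LIF, and 1.41 and 1.21 RPKM in 2i+LIF.

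Zic2, a zinc finger factor found at enhancers of pluripotent cells and in the neural plate, had no clear order. The highest RPKM came from a wt 2i+LIF library, 38.2, while the other had 17.5. Prdm14-/- cells had 28.4 (G6) and 16.7 (F10) RPKM and Mtgr1-/- cells 20.7 (A3), 17.0 (C1) and 28.2 (C3), and these conditions overlapped. FH-Mtgr1 cells (16.3 in A3, 14.9 in C1 and 14.9 in C3) and E294K cells (14.9 in F10 and 13.5 in G6) overlapped each other. The wt serum+LIF library had 11.8 RPKM and the FH-Prdm14 lines had the lowest values, 10.8 (G6) and 6.11 (F10) RPKM.

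Foxd3, a forkhead factor that acts in pluripotent cells and again in the neural crest, was the member with the most unlike order. FH-Prdm14 cells had 38.0 (G6) and 37.2 (F10) RPKM, and the wt 2i+LIF values of 53.5 and 6.25 RPKM enclosed all conditions but FH-Mtgr1. E294K cells had 19.9 (F10) and 20.4 (G6) RPKM, within the range of Mtgr1-/- cells at 12.2 (A3), 17.1 (C1) and 27.6 (C3). The wt serum+LIF library (8.79 RPKM) lay between the Prdm14-/- libraries (6.83 in G6 and 10.3 in F10). FH-Mtgr1 cells were lowest, at 4.06 (A3), 3.67 (C1) and 2.85 (C3) RPKM.

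**Figure D1:**
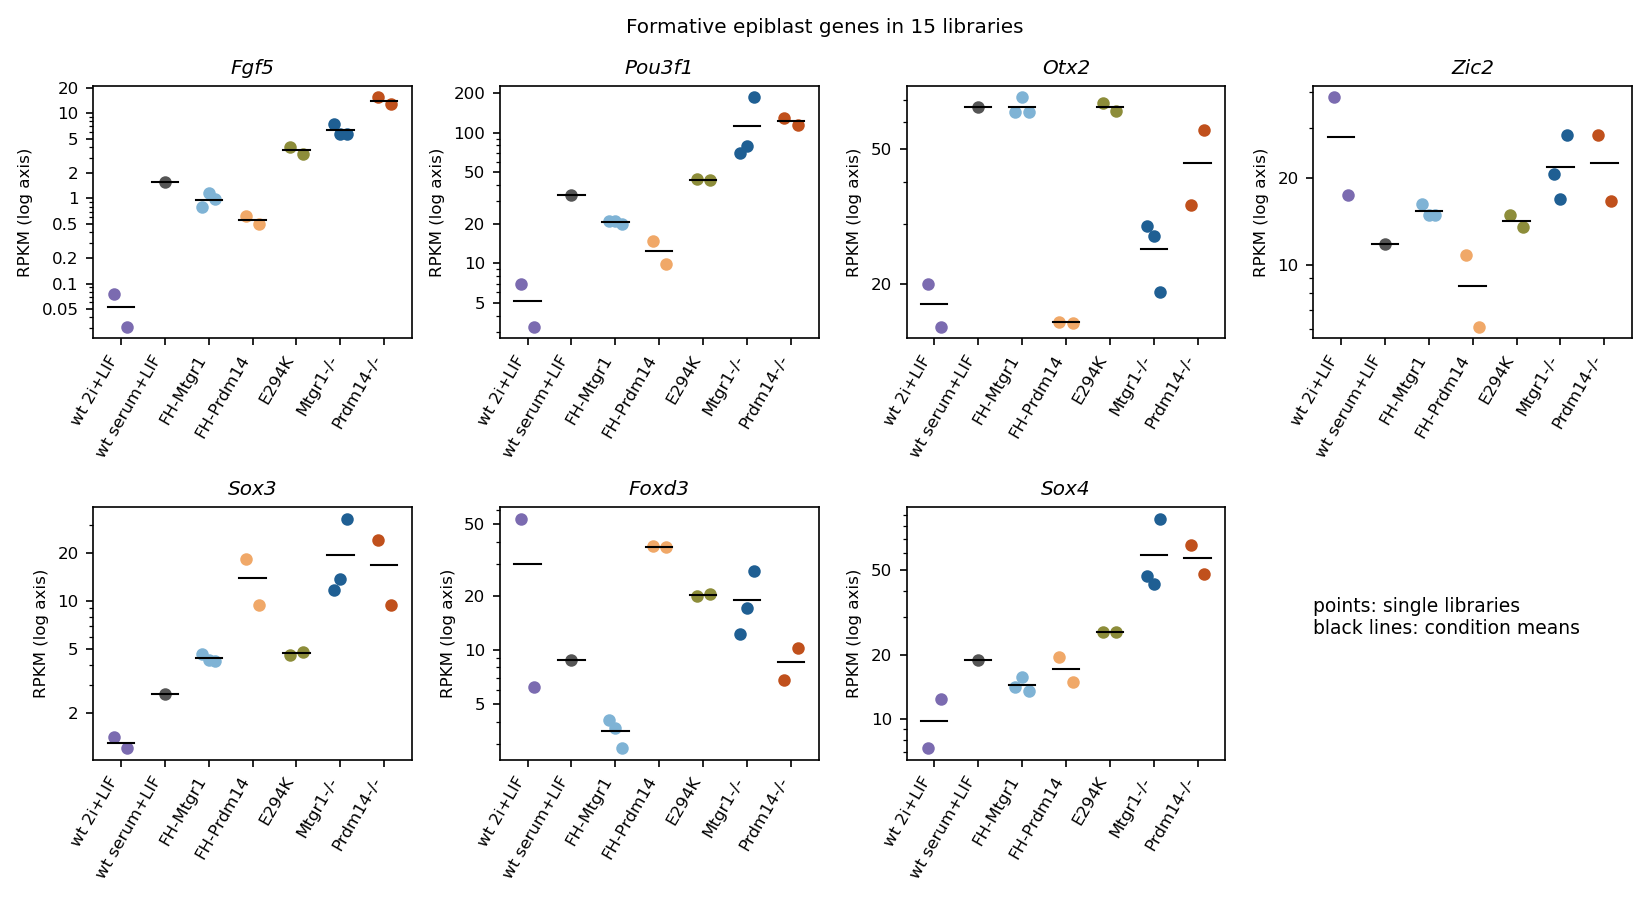
RPKM of each gene (log axis) in the 7 conditions, with 1 point per library and a black line at the mean of each condition. Fgf5, Pou3f1 and Sox4 are highest in the knockouts, Otx2 is lowest in FH-Prdm14 and wt 2i+LIF cells, and Foxd3 is lowest in FH-Mtgr1 cells.

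Return of FH-Mtgr1 to Mtgr1-/- cells lowered 5 of the 7 genes and raised Otx2. In the comparison of Mtgr1-/- with FH-Mtgr1 cells, Fgf5 had a log2 difference of 2.21 (standard error 0.16, adjusted p = 2.05e-06), Pou3f1 one of 2.25 (0.33, adjusted p = 0.000142) and Sox4 one of 1.91 (0.25, adjusted p = 7.90e-05). All differences and adjusted p-values are from limma with Benjamini-Hochberg adjustment over the 13477 genes, on the log2(RPKM + 0.5) scale, which makes the change of low genes smaller. Foxd3 (2.21, standard error 0.55, adjusted p = 0.00508) and Sox3 (1.87, standard error 0.38, adjusted p = 0.00141) were higher as well. Otx2 changed by -1.39 (standard error 0.20, adjusted p = 0.000123). Zic2 differed by 0.47 (standard error 0.30, adjusted p = 0.195) and did not pass. In this comparison 26.2% of all genes tested were called higher and 26.1% lower, so that about every other gene was called. The median over the 7 genes was 1.91 and that of all genes was -0.01. The same number of members, 6, passed without any single library of the comparison.

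Return of FH-Prdm14 to Prdm14-/- cells also changed 6 of the 7 genes, but not in the same directions. Compared with FH-Prdm14 cells, Prdm14-/- cells had more Fgf5 (log2 fold change 3.78, standard error 0.20, adjusted p = 8.60e-07), Pou3f1 (3.28, standard error 0.40, adjusted p = 0.000148) and Sox4 (1.68, standard error 0.31, adjusted p = 0.00205). Otx2 was higher in the knockout here, by 1.49 (standard error 0.24, adjusted p = 0.000937). Zic2 was higher by 1.36 (standard error 0.36, adjusted p = 0.0161), and Foxd3 changed by -2.10 (standard error 0.67, adjusted p = 0.0382). Sox3 differed by 0.19 (standard error 0.47, adjusted p = 0.808), and its libraries overlapped. Of all genes, 11.4% were called higher and 13.8% lower. The median over the 7 genes was 1.49, against -0.09 over all genes. The calls of Zic2 and Foxd3 were the least firm: Foxd3 had an adjusted p of 0.0704 without Prdm14-/- clone F10 and of 0.215 without clone G6, and Zic2 one of 0.169 without clone G6 and of 0.161 without FH-Prdm14 clone F10. Foxd3 also missed the threshold without FH-Prdm14 clone G6 (adjusted p = 0.141) or F10 (adjusted p = 0.139) and with no filter on low values (adjusted p = 0.0706), and Zic2 on the 4 libraries compared alone (adjusted p = 0.0521).

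**Figure D2:**
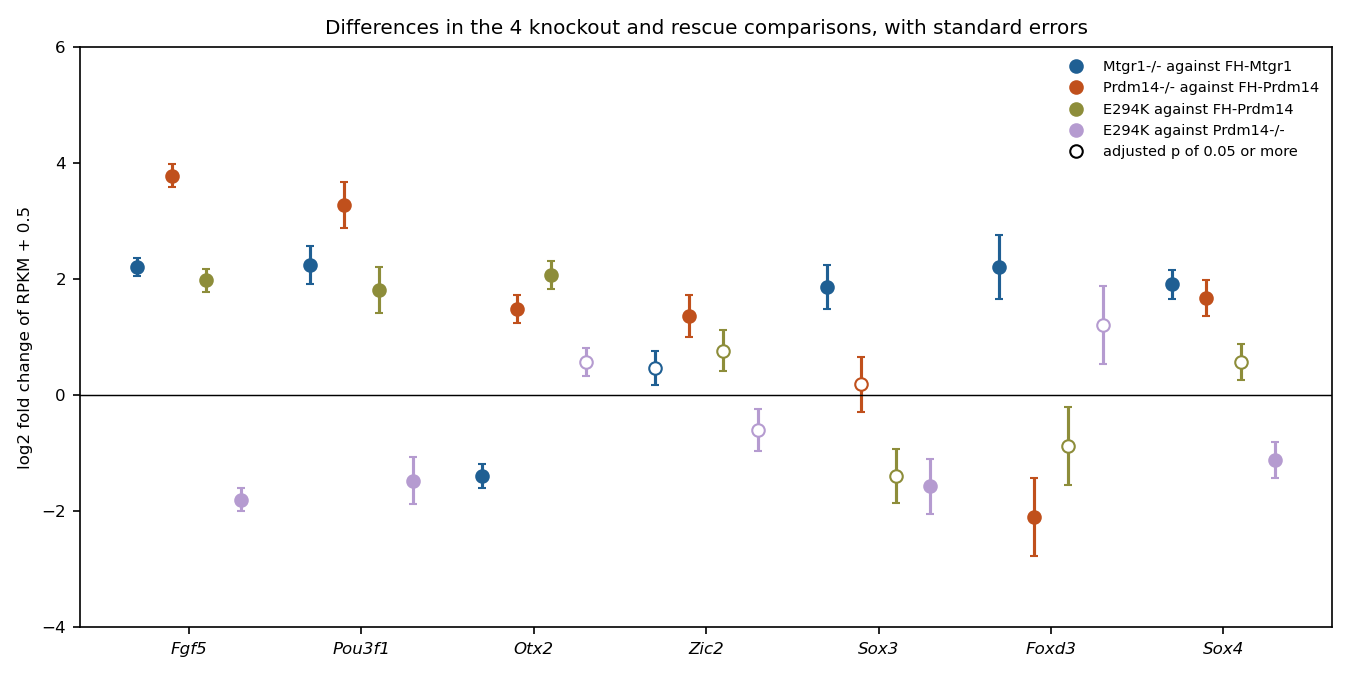
Log2 fold change of RPKM + 0.5 (vertical axis) of each gene in 4 comparisons, with standard errors from the limma fit; open symbols did not pass an adjusted p of 0.05. Fgf5 and Pou3f1 are above 0 in every comparison with a rescue line, while Otx2 and Foxd3 point in opposite directions in the comparisons of Mtgr1-/- and of Prdm14-/- cells with their own rescue lines. Against wt serum+LIF cells Otx2 was at -1.40 in Mtgr1-/- and -0.59 in Prdm14-/- cells.

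The difference between these effects was tested directly, as the Mtgr1 effect minus the Prdm14 effect, each against its own rescue lines, so that no library is shared. It passed for 4 of the 7 genes, 2 in each direction, when 17.1% of all genes passed upwards and 14.3% downwards. For Otx2 it was -2.88 (standard error 0.31, adjusted p = 0.000108), with opposite signs in the separate comparisons. For Foxd3 it was 4.30 (standard error 0.87, adjusted p = 0.00324), again with opposite signs. These signs are those against the rescue lines, and that of Otx2 in Prdm14-/- cells depends on the reference. Whether the Prdm14 level of the FH-Prdm14 lines had a part in the signs was not tested. It was 79.8 to 116 RPKM, against 2.77 RPKM in the wt serum+LIF library. Against that library, Otx2 was at -1.40 in Mtgr1-/- cells (adjusted p = 0.00250) and at -0.59 in Prdm14-/- cells (adjusted p = 0.157, and -0.95 with adjusted p = 0.0341 without clone F10). Foxd3 was at 0.99 (adjusted p = 0.336) and -0.06 (adjusted p = 0.965). Fgf5 rose in both knockouts but less on loss of Mtgr1 (difference -1.57, standard error 0.26, adjusted p = 0.00107). Sox3 gave 1.69 (standard error 0.60, adjusted p = 0.0494), a call that was lost in 12 of the other fits, among them each fit without an FH-Mtgr1 library (adjusted p 0.0729 to 0.0824). The differences of Pou3f1 (-1.03, adjusted p = 0.148), Zic2 (-0.89, adjusted p = 0.165) and Sox4 (0.23, adjusted p = 0.698) did not pass. With clone of origin as a replicate block Zic2 passed (adjusted p = 0.0257, against 0.104 in the same libraries with no block), and without Mtgr1-/- clone C3 Pou3f1 did (-1.46, adjusted p = 0.010).

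**Figure D3:**
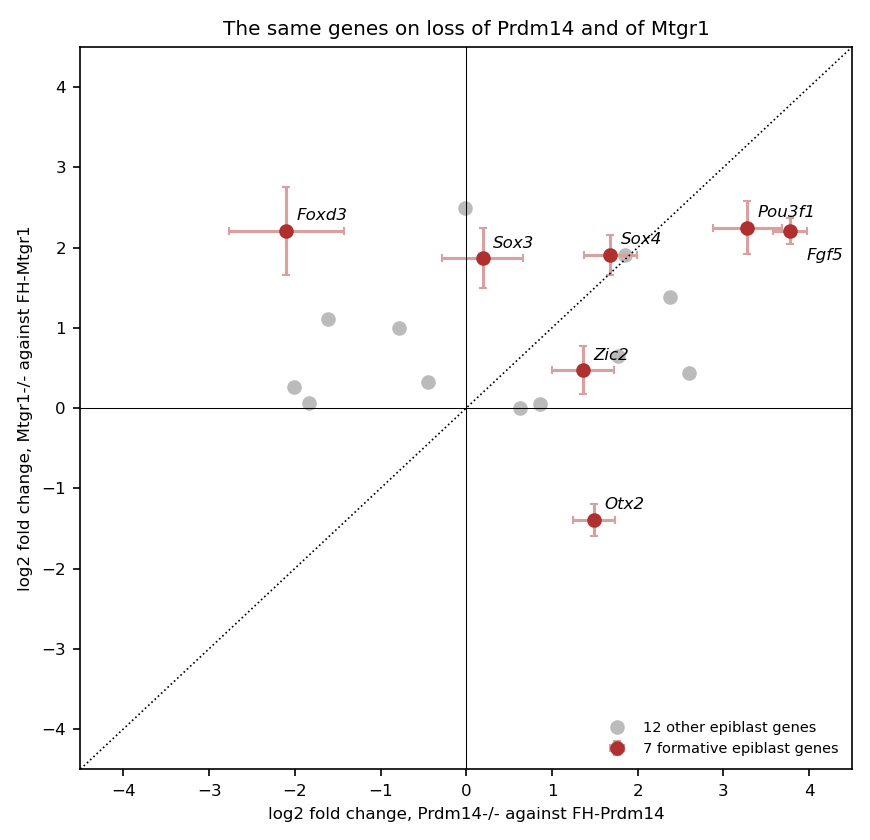
Log2 fold change on loss of Mtgr1 (vertical axis) and of Prdm14 (horizontal axis), each knockout against its own rescue lines; red points with standard errors are the 7 genes, grey points 12 other epiblast genes, and the dotted line marks equal change. Sox4 lies near the line, Fgf5 and Pou3f1 below it, Otx2 at the lower right and Foxd3 at the upper left.

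A direct comparison of the knockouts left 2 genes different. Mtgr1-/- cells had less Fgf5 than Prdm14-/- cells (log2 fold change -1.11, standard error 0.18, adjusted p = 0.000850) and less Otx2 (-0.81, standard error 0.22, adjusted p = 0.0139). No member was called higher, and over all genes 14.4% were called higher and 21.1% lower. Sox4 (-0.01, standard error 0.28), Zic2 (-0.02, standard error 0.33), Sox3 (0.21, standard error 0.43) and Pou3f1 (-0.27, standard error 0.36) differed by less than their standard errors. Foxd3 was at 1.05 with a standard error of 0.61 (adjusted p = 0.203). Without Prdm14-/- clone F10 the adjusted p of Otx2 was 0.183, and with a correction for GC content Sox3 (0.87, adjusted p = 0.0354) and Foxd3 (1.62, adjusted p = 0.0195) passed.

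The E294K protein left Fgf5, Pou3f1 and Otx2 higher than wt FH-Prdm14 did. Their log2 fold changes were 1.98 (standard error 0.20, adjusted p = 7.46e-05), 1.81 (0.40, adjusted p = 0.00837) and 2.07 (0.24, adjusted p = 0.000190). None of the 7 was called lower, and over all genes 6.35% were called higher and 13.2% lower. Sox4 (0.58, adjusted p = 0.211), Zic2 (0.77, adjusted p = 0.156), Sox3 (-1.39, adjusted p = 0.0549) and Foxd3 (-0.88, adjusted p = 0.378) did not pass. Fitted on the 4 libraries compared, 6 passed, Sox3 (adjusted p = 0.0157) and Foxd3 (adjusted p = 0.000838) as lower and Sox4 as higher (adjusted p = 0.0185). Adding the clone of origin to that fit as a replicate block gained Zic2 alone (adjusted p = 0.0493, from 0.0575), so that all 7 passed. These fits called 7214 and 7288 of all 13477 genes, against 2633 in the fit of all libraries. Pou3f1 lost its call without FH-Prdm14 clone F10 (adjusted p = 0.0789) or without E294K clone F10 (adjusted p = 0.0611) or G6 (adjusted p = 0.0522).

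Against Prdm14-/- cells, the E294K protein lowered 4 genes: Fgf5 (log2 fold change -1.80, standard error 0.20, adjusted p = 0.000170), Pou3f1 (-1.47, standard error 0.40, adjusted p = 0.0163), Sox3 (-1.57, standard error 0.47, adjusted p = 0.0232) and Sox4 (-1.11, standard error 0.31, adjusted p = 0.0186). Fgf5 and Pou3f1 thus lay between the knockout and FH-Prdm14 levels, with both differences past the threshold. None of the 7 was called higher, and the shares over all genes were 15.1% higher and 17.8% lower. Otx2 (0.58, adjusted p = 0.0809), Foxd3 (1.21, adjusted p = 0.178) and Zic2 (-0.60, adjusted p = 0.215) did not pass, although Foxd3 did in a fit of the 4 libraries compared (adjusted p = 0.0145). With the replicate block added there, Otx2 passed too (adjusted p = 0.0347, from 0.122). Only Fgf5 passed without Prdm14-/- clone G6, without E294K clone F10 or without E294K clone G6. After correction for GC content Sox3 was at -0.51 (adjusted p = 0.252).

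The rescue lines differed from each other in 3 genes. FH-Prdm14 cells had less Otx2 than FH-Mtgr1 cells (log2 fold change -2.07, standard error 0.22, adjusted p = 4.13e-05), more Foxd3 (3.25, standard error 0.61, adjusted p = 0.00154) and more Sox3 (1.48, standard error 0.43, adjusted p = 0.0153). The Sox3 call was lost without FH-Prdm14 clone G6 (1.02, adjusted p = 0.176). Over all genes 26.2% were called higher and 15.4% lower in FH-Prdm14 cells. Zic2 (-0.88, adjusted p = 0.0504), Fgf5 (-0.46, adjusted p = 0.0589) and Pou3f1 (-0.76, adjusted p = 0.112) were lower without passing, and Sox4 was at 0.23 (adjusted p = 0.532). With a correction for GC content Fgf5, Pou3f1 and Zic2 also passed, so that 6 genes were called.

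FH-Prdm14 cells, grown in serum, were also set against wt cells in 2i+LIF. In FH-Prdm14 cells Sox3 was higher, with a log2 difference of 2.92 (standard error 0.47, adjusted p = 0.000850), and so was Pou3f1, at 1.24 (standard error 0.40, adjusted p = 0.0410). Zic2 changed by -1.61 (standard error 0.36, adjusted p = 0.00712). Fgf5 was called higher (adjusted p = 0.00542), and since wt 2i+LIF cells had 3 reads of it against 38 in FH-Prdm14 cells, its size is best given by the ratio of reads, 10.9 (exact 95% interval 3.46 to 55.1, which covers counting error only). Over all genes 15.5% were called higher and 7.97% lower. Otx2 (-0.16, standard error 0.24), Foxd3 (1.00, standard error 0.67) and Sox4 (0.80, adjusted p = 0.0825) did not pass. Foxd3 took the sign of the library used, 2.50 without wt 2i+LIF library 1 and -0.50 without library 2. Pou3f1 lost its call in 7 of 11 other fits, among them no filter (adjusted p = 0.0681), median-of-ratios scaling (0.0601), voom (0.0588) and only the 4 libraries compared (0.169). It was also lost without wt 2i+LIF library 2 (adjusted p = 0.283) or without FH-Prdm14 clone G6 (adjusted p = 0.257) or F10 (adjusted p = 0.0646). Fgf5 lost its call without clone G6 (adjusted p = 0.0590) and on the 4 libraries alone (0.0616), and Zic2 without clone F10 (adjusted p = 0.0821) and on the 4 libraries alone (0.137).

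The wt 2i+LIF libraries had less Fgf5, Pou3f1 and Otx2 than the single wt serum+LIF library, in a test whose spread came from the other conditions. The read ratio of Fgf5 was 0.0327 (exact 95% interval 0.00657 to 0.100, from 3 and 62 reads, counting error only), and its limma test gave an adjusted p of 0.000398. Pou3f1 changed by -2.66 (standard error 0.49, adjusted p = 0.00298) and Otx2 by -1.91 (standard error 0.30, adjusted p = 0.00119). None of the 7 was called higher, and over all genes 9.28% were called higher and 13.6% lower. Sox4 (-0.95, adjusted p = 0.0918), Zic2 (1.10, adjusted p = 0.0918), Foxd3 (1.04, adjusted p = 0.386) and Sox3 (-0.79, adjusted p = 0.339) did not pass. Without wt 2i+LIF library 2, Zic2 (1.65, adjusted p = 0.0134), Foxd3 (2.54, adjusted p = 0.00182) and Sox4 (-1.31, adjusted p = 0.0305) passed, whereas Foxd3 was at -0.46 without library 1. Fitted on these 3 libraries alone, 0 members and 0 of all genes passed in limma, with 3 members at an unadjusted p under 0.05.

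Both knockouts were also compared with the single wt serum+LIF library, which these comparisons share. Fgf5, Pou3f1, Sox3 and Sox4 were higher in each of them. In Mtgr1-/- cells the log2 fold changes were 1.71 for Fgf5, 1.59 for Pou3f1 (adjusted p = 0.0179), 2.52 for Sox3 (adjusted p = 0.00354) and 1.54 for Sox4 (adjusted p = 0.00591), and Otx2 changed by -1.40 (standard error 0.28, adjusted p = 0.00250). Over all genes 14.9% were called higher and 22.1% lower. In Prdm14-/- cells the values were 2.81 for Fgf5 (adjusted p = 7.07e-05), 1.85 for Pou3f1 (adjusted p = 0.0195), 2.32 for Sox3 (adjusted p = 0.0149) and 1.54 for Sox4 (adjusted p = 0.0152), with 11.7% of all genes called higher and 13.7% lower. Otx2 was at -0.59 in Prdm14-/- cells (adjusted p = 0.157). Without Prdm14-/- clone G6, only Fgf5 passed. None of the 7 genes passed between FH-Mtgr1 and wt serum+LIF cells in limma (0 at an unadjusted p under 0.05, but 3 when only these 4 libraries were fitted and 2 after the GC correction or without the wt 2i+LIF libraries), where 1.03% of all genes were called higher and 1.71% lower. The log2 fold changes ran from -1.22 (Foxd3, standard error 0.78) to 0.65 (Sox3, standard error 0.54), and voom on the reads gave 0 calls too. These standard errors leave room for sizeable differences in both directions.

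The make-up of the summed signal changed along with the single genes. In wt serum+LIF cells 46.4% of the summed RPKM came from Otx2, and in FH-Mtgr1 cells 51.4 to 53.7% did. In Mtgr1-/- cells it gave 4.94 to 14.9%, and Pou3f1 gave 35.4 to 48.2%. Prdm14-/- cells had 42.4 and 42.9% from Pou3f1 and 11.2 and 21.3% from Otx2. The E294K libraries were nearly alike, with 36.8 and 37.7% from Otx2 and 24.3 and 24.6% from Pou3f1. The summed RPKM was 199 to 385 in Mtgr1-/-, 268 to 304 in Prdm14-/-, 175 to 182 in E294K, 121 to 132 in FH-Mtgr1, 93.4 to 118 in FH-Prdm14, 144 in wt serum+LIF and 55.8 to 127 in wt 2i+LIF cells.

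**Figure D4:**
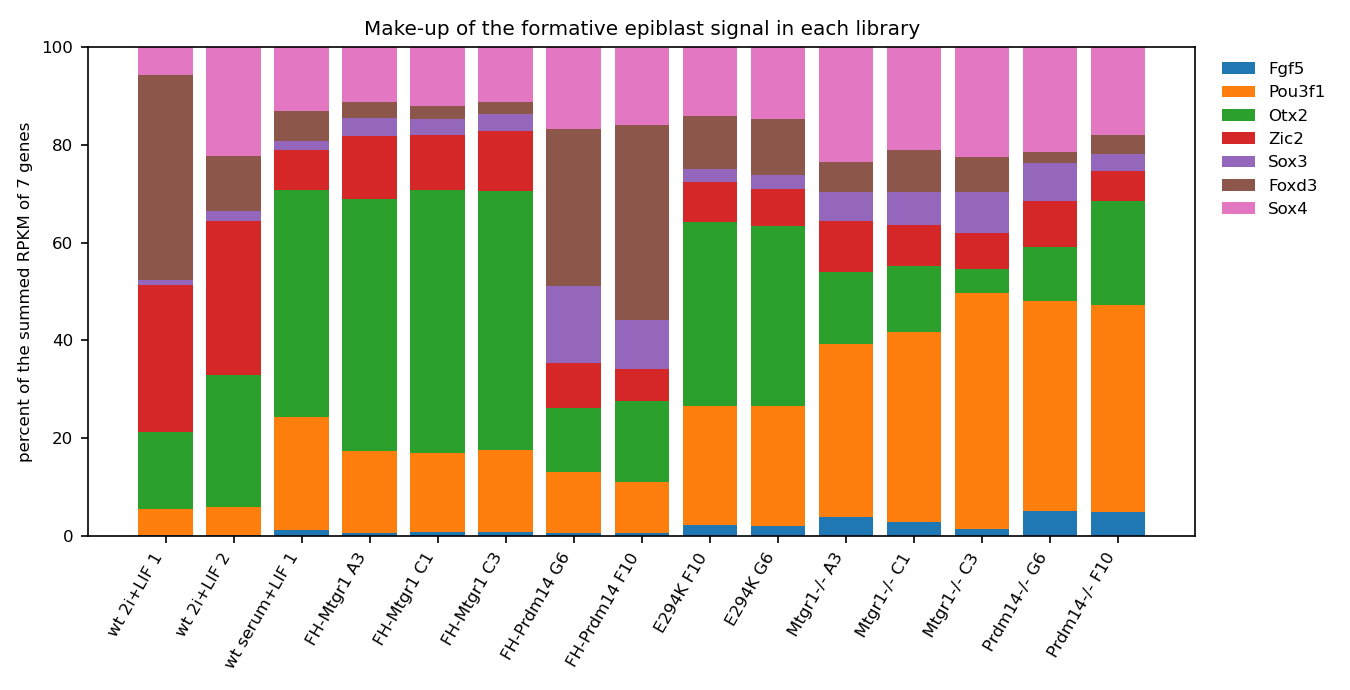
Share of each gene in the summed RPKM of the 7 genes (percent, vertical axis), with 1 bar per library. The Otx2 band is widest in wt serum+LIF, FH-Mtgr1 and E294K libraries, and the Pou3f1 band is widest in the knockouts.

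Other genes of the epiblast, listed by name (12 genes, all tested), gave mixed results beside the members. On loss of Mtgr1 6 were higher and 0 lower than in FH-Mtgr1 cells, with a median log2 fold change of 0.54. Of all genes 26.2% were called higher and 26.1% lower in that comparison. Cdh2, the N-cadherin gene, rose most (2.49), and the de novo DNA methyltransferase gene Dnmt3b rose by 1.39. On loss of Prdm14 5 were higher (against 11.4% of all genes) and 3 lower (against 13.8%) than in FH-Prdm14 cells (median 0.31). The Wnt ligand gene Wnt8a was highest there (2.60), Dnmt3b was higher by 2.38, and Lef1, a nuclear effector of Wnt signalling, changed by -2.01. Prdm14-/- cells had 1 higher (against 11.7% of all genes) and 4 lower (against 13.7%) than the wt serum+LIF library (median -0.19). Mtgr1-/- cells had 3 higher (against 14.9%) and 1 lower (against 22.1%) than that library (median -0.12). Dnmt3b was called in neither, with mean RPKM of 106 in Prdm14-/-, 258 in Mtgr1-/- and 149.5 in wt serum+LIF cells. In E294K against FH-Prdm14 cells 4 were higher (against 6.35% of all genes) and 0 lower (against 13.2%), with Dnmt3b at 3.26. In 2i+LIF 7 of the 12 were lower than in serum+LIF (against 13.6% of all genes) and 0 were higher (against 9.28%).

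Of the relatives of the members (12 paralogs), 7 stayed under 1 RPKM in every library and 4 could be tested. Sox11, a close relative of Sox4, was at 22.8 ± 6.27 RPKM (SD, n = 3) in Mtgr1-/- and 11.9 ± 0.456 RPKM (SD, n = 3) in FH-Mtgr1 cells, a log2 fold change of 0.88 (adjusted p = 0.00259). It was at 16.9 ± 3.24 RPKM (SD, n = 2) in Prdm14-/- and 2.65 ± 0.632 RPKM (SD, n = 2) in FH-Prdm14 cells, a log2 fold change of 2.47 (adjusted p = 3.80e-05). In wt 2i+LIF cells it was at 0.882 ± 0.243 RPKM (SD, n = 2). No other paralog was called in either knockout against its rescue lines.

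Markers of other states moved alongside the members. The 11 naïve pluripotency genes summed to 278 to 348 RPKM in Mtgr1-/-, 375 to 404 in FH-Mtgr1, 429 to 562 in Prdm14-/- and 1485 to 1514 in FH-Prdm14 cells. All 11 were lower in Prdm14-/- than in FH-Prdm14 cells, with the largest fall in Klf4 (-2.72). Against FH-Mtgr1 cells, 6 were lower in Mtgr1-/- cells, with the largest fall in Tbx3 (-2.34), and 1 (Klf5, 1.08) was higher. Over all genes, 26.2% were called higher and 26.1% lower on loss of Mtgr1, and 11.4% and 13.8% on loss of Prdm14. The single wt serum+LIF library, with a naïve sum of 827 RPKM, gave another order. Against it, 10 of the 11 were lower in Mtgr1-/- cells (22.1% of all genes) and 3 in Prdm14-/- cells (13.7% of all genes). The 11 extraembryonic endoderm genes summed to 362 to 465 RPKM in Mtgr1-/- and 364 to 396 in Prdm14-/- cells, against 130 to 156 in FH-Mtgr1 and 178 to 183 in FH-Prdm14 cells. Of its 10 genes tested, 3 were higher (Krt19 by 3.78, Col4a1 by 1.35 and Sparc by 0.80) and 3 lower (Gata4 at -1.75, Gata6 at -1.59 and Pdgfra at -1.06) in Mtgr1-/- against FH-Mtgr1 cells. In Prdm14-/- against FH-Prdm14 cells 4 were higher (Krt19 by 2.98, Dab2 by 2.00, Col4a1 by 1.48 and Gata4 by 1.35) and 0 lower. The lineage-defining factor Gata4 thus had opposite directions against the rescue lines. Mtgr1-/- cells had 4 higher (14.9% of all genes) and 0 lower (22.1%) than the wt serum+LIF library. Prdm14-/- cells had 5 higher (11.7%) and 0 lower (13.7%) than that library, and Gata4 was called in neither. The part of these markers in the values of the members was not tested. Of 10 neural genes 7 were under 1 RPKM in every library, as were 4 of 5 neural crest genes and 5 of 10 genes of the primitive streak and mesendoderm. In the last list Wnt3 was higher in both knockouts than in their rescue lines (0.93 on loss of Mtgr1 and 1.17 on loss of Prdm14). Gsc was at -1.37 in Prdm14-/- against FH-Prdm14 cells, with mean RPKM of 1.43 and 4.53. Against the wt serum+LIF library, at 0.161 RPKM, it was called higher in Prdm14-/- cells. Eomes was called higher on loss of Prdm14 (mean RPKM 5.13 against 2.45 in FH-Prdm14 cells) but not on loss of Mtgr1 (2.69 against 2.47 in FH-Mtgr1 cells). The difference of these Eomes effects was called too. The neural exception with a high level was the neuronal tubulin gene Tubb3, which rose by 3.07 on loss of Mtgr1 and changed by -1.81 in Prdm14-/- against FH-Prdm14 cells. The 5 general pluripotency genes summed to 1220 to 1821 RPKM over all libraries, a sum within which single genes moved in both directions. Return of FH-Prdm14 set Pou5f1 (mean RPKM 352 in the knockout and 671 in the rescue) and Sall4 higher and Lin28a lower. On loss of Mtgr1 the calls against the rescue lines were Sall4 and Lin28a, both upwards. Against the wt serum+LIF library the only calls were Pou5f1 in Prdm14-/- and Sox2 in Mtgr1-/- cells, both downwards.

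Targets and feedback genes of ERK signalling (8 genes, 7 tested) were read because the 2i medium blocks MEK. In 2i+LIF 6 of the 7 were lower than in serum+LIF (against 13.6% of all genes), with a median of -2.47. FH-Prdm14 cells had 6 of the 7 higher than wt 2i+LIF cells (median 2.23, against 15.5% of all genes called higher). Against FH-Prdm14 cells, Prdm14-/- cells had 2 higher and 3 lower, where 11.4% of all genes were called higher and 13.8% lower. Against FH-Mtgr1 cells, Mtgr1-/- cells had 3 higher and 1 lower, where 26.2% of all genes were called higher and 26.1% lower. Spry4, a feedback inhibitor, was at 1.36 in Mtgr1-/- against FH-Mtgr1 cells and at -1.27 in Prdm14-/- against FH-Prdm14 cells. Against the wt serum+LIF library it was called lower in FH-Mtgr1 and in Prdm14-/- cells and was not called in Mtgr1-/- cells.

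For each member, the 3 genes with the most similar course over the 7 conditions were found among the 13470 other genes, by the root mean square difference of centred condition means on the log2 scale. Sox4 had the closest neighbours, Rtn1 (0.11), Ttyh3 (0.13) and Ctdspl (0.19). Zic2 was followed by Gnai2 (0.18), Surf4 (0.19) and Bak1 (0.20), and Otx2 by Upk3b (0.20), Upk3bl (0.24) and Bhlha15 (0.25). Dok2 was the nearest gene of both Pou3f1 (0.26) and Fgf5 (0.37). Its mean RPKM was 18.7 in Prdm14-/-, 17.2 in Mtgr1-/-, 5.85 in E294K and 0.901 in wt 2i+LIF cells. Pou3f1 then had Fndc3c1 (0.30) and Cdcp1 (0.37), and Fgf5 had Lrp2 (0.42) and Nnat (0.45). Sox3 had Lrrn4 (0.28), Hmgn3 (0.30) and Sct (0.34), and Foxd3 had Ngfr (0.31), Tagln3 (0.37) and Nab2 (0.37). Among the members themselves Fgf5 and Pou3f1 were closest (0.33), and every other pair was at 0.71 or more.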

How the data were processed

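Per the methods, polyadenylated RNA of each line was sequenced as single-end reads, of 76 or 51 bases (which library had which is not stated). The authors used Tophat with mm9, then HTSeq for counts per RefSeq gene (versions not given in the sources used here), and deposited RPKM values with gene lengths for 24015 genes. RPKM times length gave whole reads for 100.0% of values (tolerance 0.01 reads), hence the depth. Within conditions, every pair of libraries differed by more than sampling noise, but to unequal degrees. The chi-square per degree of freedom of a pair, near 1 for sampling noise alone, ran from 3.53 (E294K) to 72.1 (wt 2i+LIF). Libraries were grouped by the labels, and p-values measure only the spread between these clones or cultures. The fit of all libraries shares 1 spread per gene over the conditions, which need not be that of the conditions compared.

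Genes with at least 1 RPKM in at least 2 libraries (13477) were fitted on log2(RPKM + 0.5), with 1 mean per condition over 15 libraries, with limma 3.58.1 (R 4.3.3, trend), and adjusted by Benjamini-Hochberg (threshold 0.05). Simulated reads with the same spread in every library were used to test the fit, so that unlike spreads between conditions were not covered. Other steps used Python 3.11.15, numpy 2.4.6, scipy 1.17.1 and pandas 2.3.3. Named genes are the 7 members, the listed genes with the largest calls or those a result turns on, and the 3 nearest genes by profile. Members and lists were chosen with earlier results of these data known.

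Pairing by parental clone comes from the labels. Residuals of libraries that share a clone correlated across 13477 genes at 0.30 (Prdm14-/- and FH-Prdm14), 0.04 (Prdm14-/- and E294K), 0.08 (FH-Prdm14 and E294K), and 0.06, -0.18 and 0.03 (Mtgr1-/- and FH-Mtgr1, clones A3, C1 and C3). Alternatives were pseudocounts of 0.1 and 1, no filter, only the compared conditions, the clone as a replicate block, median-of-ratios scaling, voom on the reads, a lowess correction for GC content (span 0.3, 12046 genes) and leaving out single libraries. Chosen after seeing the data were a block with clones A3 and C1 exchanged in FH-Mtgr1 and a fit without the wt 2i+LIF libraries. ChIP-seq was not analysed here.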

Additional observations from a re-analysis of the deposited data

Results flagged for a closer look

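For 4 of the 7 genes the difference of Mtgr1-/- from FH-Mtgr1 cells differed from that of Prdm14-/- from FH-Prdm14 cells by a test of the difference itself, on the log2(RPKM + 0.5) scale in limma with Benjamini-Hochberg adjustment. The difference was -2.88 for Otx2 and 4.30 for Foxd3, where the separate differences had opposite signs against the rescue lines. Against the wt serum+LIF library Otx2 was at -1.40 in Mtgr1-/- and -0.59 in Prdm14-/- cells, and Foxd3 at 0.99 and -0.06, with Otx2 in Mtgr1-/- cells past the threshold. It was -1.57 for Fgf5, where both differences were increases. It was 1.69 for Sox3, where 12 of 20 other fits lost the call. For Foxd3 the FH-Prdm14 level (38.0 and 37.2 RPKM) and the FH-Mtgr1 level (4.06, 3.67 and 2.85 RPKM) lay on opposite sides of the wt serum+LIF value of 8.79 RPKM. No condition had enough libraries for a test of single outlying libraries.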

How the results depend on the processing

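The number of members called kept within 1.5 times of its value for Mtgr1-/- against FH-Mtgr1, Prdm14-/- against FH-Prdm14 and the difference of the effects, in every alternative run. Fitted on the compared conditions alone, which takes the spread from fewer libraries, it was 6 for E294K against FH-Prdm14 (3 in the report), 1 for Mtgr1-/- against Prdm14-/- (2), 5 for FH-Prdm14 against FH-Mtgr1 (3), 1 for FH-Prdm14 against wt 2i+LIF (4), 0 for the medium (3; 3 at an unadjusted p under 0.05) and 3 for Mtgr1-/- against wt serum+LIF cells (5). For FH-Mtgr1 against wt serum+LIF cells it was 0 in each alternative, which says little with 1 wt library, and 0 to 3 members were at an unadjusted p under 0.05. The replicate block by clone, fitted on the compared conditions, gave 7 for E294K against FH-Prdm14, where these conditions with no block gave 6. In either knockout against its rescue it gave the same calls as the report, also with A3 and C1 exchanged. For Prdm14-/- against FH-Prdm14, Zic2 missed the threshold on the same libraries with no block (adjusted p = 0.0521) and passed with it (0.000440). The correction for GC content gave 4 for Mtgr1-/- against Prdm14-/- and 6 for FH-Prdm14 against FH-Mtgr1. For the latter, a pseudocount of 0.1, median-of-ratios scaling and the fit without wt 2i+LIF libraries gave 5 each. The cause was not tested.

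Without single libraries the number ran from 1 to 5 for E294K against Prdm14-/-, 1 to 2 for Mtgr1-/- against Prdm14-/-, 2 to 5 for FH-Prdm14 against wt 2i+LIF, 3 to 6 for the medium and 1 to 5 for Prdm14-/- against wt serum+LIF cells. Of the members' 1071 other values, 947 kept their direction and side of the threshold, 56 lost and 42 gained a call, and 26 changed sign, none of them called in the report. For Mtgr1-/- against Prdm14-/- cells, log2 fold changes became 0.05 (Zic2) and 0.06 (Sox4) after median-of-ratios scaling, and 0.18 (Pou3f1), 0.26 (Zic2) and 0.03 (Sox4) after the GC correction. Scaling gave 0.01 for Foxd3 in Prdm14-/- and 0.12 for Otx2 in FH-Mtgr1 against wt serum+LIF cells, where the GC correction gave 0.20 for Otx2. Sox3 was at -0.08 in Prdm14-/- against FH-Prdm14 cells after the GC correction. Without single libraries the range was -0.47 to 0.84 for Sox3 in Prdm14-/- against FH-Prdm14, -0.39 to 0.36 for Zic2, -0.45 to 0.86 for Sox3 and -0.32 to 0.21 for Sox4 in Mtgr1-/- against Prdm14-/-, -0.36 to 0.04 for Otx2 and -0.50 to 2.50 for Foxd3 in FH-Prdm14 against wt 2i+LIF, -0.46 to 2.54 for Foxd3 between media, -0.34 to 0.22 for Foxd3 in Prdm14-/- and -0.05 to 0.02 for Otx2 in FH-Mtgr1 against wt serum+LIF cells, and -0.09 to 0.44 for Sox4 in the difference of the effects.

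Over all genes, the median log2 fold change reached 0.11 or -0.11 and was at most 0.02 in size after median-of-ratios scaling. With only the compared conditions, 3458 genes were called in place of 3390 for Prdm14-/- against FH-Prdm14 and 7214 in place of 2633 for E294K against FH-Prdm14, and adding the replicate block made these 5387 and 7288. Only the compared conditions also gave 626 in place of 3163 for FH-Prdm14 against wt 2i+LIF, 625 in place of 3423 for Prdm14-/- and 0 in place of 369 for FH-Mtgr1 against wt serum+LIF, and 0 in place of 3084 for the medium. Fgf5 in 2i+LIF is limited by depth, at 3 reads.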
